A study of Mus musculus with 6 samples.

Results

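The genes described are 10 genes of apoptotic cell clearance, chosen by symbol and matched to the deposited table through GENCODE M21. All 10 were found among its 46983 genes, and all 10 passed the filter on low counts. They are the TAM receptors Mertk, Axl and Tyro3, the bridging proteins Gas6, Pros1 and Mfge8, the receptors Stab1, Cd36 and Adgrb1, and the lipid exporter Abca1. RNA was sequenced from GFP-positive cells sorted by FACS from E11.25 mouse embryos, 3 control and 3 BAF155/170-deficient. All 6 embryos carried the Wnt1 Cre/+ allele and 1 copy of the Rosa26 mTmG reporter, which turns GFP on wherever Cre has acted. The controls also carried 1 floxed copy each of BAF155 (gene Smarcc1) and BAF170 (gene Smarcc2), so they are heterozygous where Cre acts, and in the deficient embryos both copies of both genes were floxed. Wnt1 is also active in the dorsal neural tube, so the sorted cells are not limited to the neural crest (NCCs), and the sex and litter of the embryos are not given in the sources used here. Counts on genes ranged from 8191219 to 19808620 per library, with all 3 deficient libraries above all 3 controls.

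Cells that die by apoptosis expose phosphatidylserine on their outer membrane, and phagocytes recognize it before they engulf the cell. Some receptors, such as Stab1 and Adgrb1, bind phosphatidylserine themselves. The TAM receptor tyrosine kinases bind it through the soluble bridges Gas6 and Pros1, and αv integrins bind it through Mfge8. In the embryo, tissue macrophages do most of this work, but neighbouring mesenchymal and epithelial cells also take up corpses. The study asked what loss of the BAF complex does to RNA in NCCs and also scored dying cells in sections, and the genes below are those that would receive such cells.

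Of the 10 genes, 8 were abundant and 2 were scarce, and the abundant and scarce ones differed in the direction of their change. The 8 abundant genes, with means of 30.2 CPM (read counts scaled to a common library size after TMM normalization) or more, had log2 fold changes between 0.04 and 0.23. The 2 scarce genes, Tyro3 and Adgrb1, had means of 2.80 and 2.73 CPM and log2 fold changes of −1.19 and −0.67. Mertk, Axl and Cd36 rose and Tyro3 fell past the significance threshold, an adjusted p no larger than 0.1 (edgeR's quasi-likelihood test, Benjamini-Hochberg over 13961 genes). That is 4 of 10 genes, where 11.9% of all genes tested passed, and 3 of 10 higher, where 4.18% passed, against 1 of 10 lower, where 7.75% passed. The fold change and level thresholds of the study's methods (an absolute log2 change from 0.58 upwards and 2 CPM or more on average) left 1 gene called, Tyro3, where 4.94% of all genes were called, 4.88% lower and 0.0573% higher. These shares are 689 genes, 8 of them higher. The study, with limma, reported many more genes in both directions, and the reason for the difference was not tested. The 3 control and the 3 deficient libraries did not overlap in 6 of the 10 genes, where 31.4% of all genes did not overlap. The median log2 fold change was 0.14 over the 10 genes and −0.02 over all genes tested. The median of the 10 genes was 0.07 without control replicate 2 and 0.18 without control replicate 1. The genes and lists were picked with earlier results of these data known, so these shares describe the genes and are no test of the group. These directions hold for TMM-scaled libraries, and 6 of the 10 changed sign under another scaling or with 1 library left out, as given below.

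**Figure D1:**
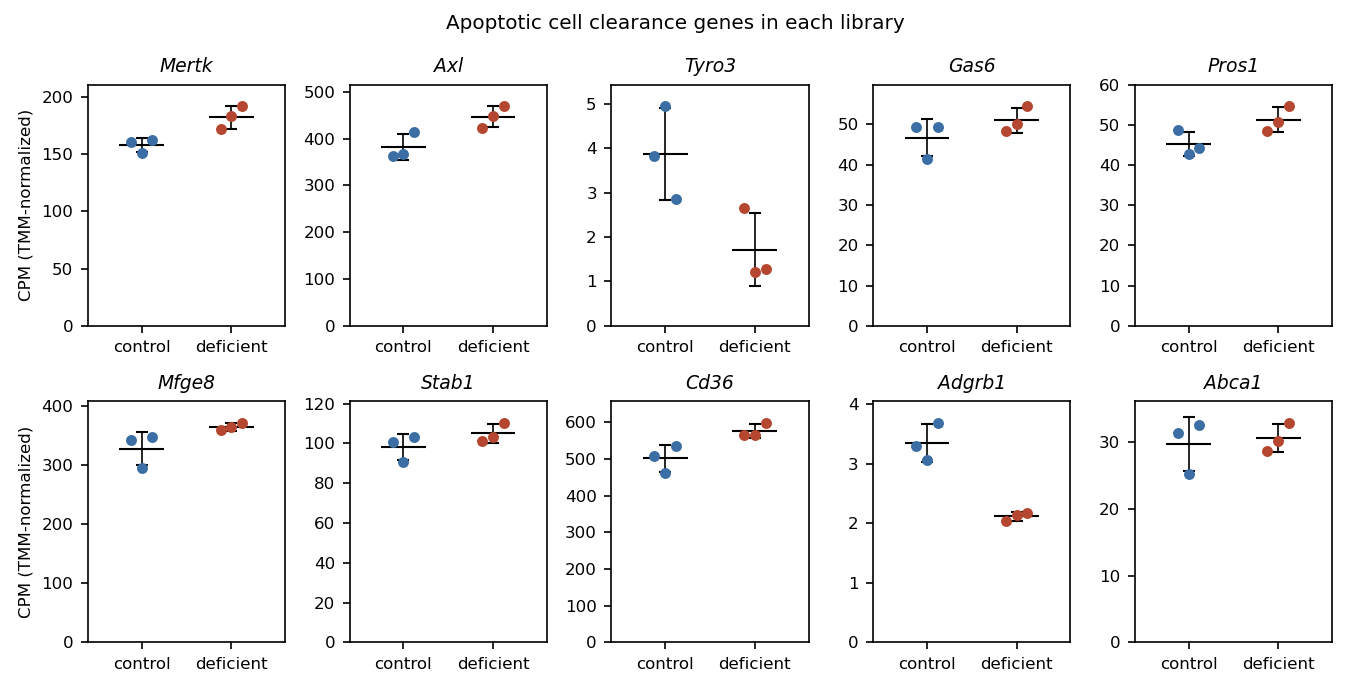
Normalized read counts (CPM, linear axes from 0) of the 10 genes in each of 3 control (blue) and 3 BAF155/170-deficient (red) libraries; lines are group means and bars are SD. Mertk, Axl, Mfge8 and Cd36 lie higher in every deficient library than in every control library, Tyro3 and Adgrb1 lie lower, and the groups of Gas6, Pros1, Stab1 and Abca1 overlap.

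The labelled cell type was first set against its markers. Sox10, a transcription factor that defines early and glial neural crest, named after its values were seen, stood at 4.35, 7.74 and 2.21 CPM in control embryos 1 to 3 and at 1.484, 0.853 and 1.184 CPM in deficient embryos 1 to 3. A list of 32 markers of crest, mesenchyme, neurons, glia and neural tube summed to 364, 506 and 282 CPM in control embryos and to 234, 186 and 174 CPM after deletion. Its most abundant gene was Col1a2, a fibrillar collagen chain, and no marker was at 0 in all libraries. A list of 16 macrophage markers summed to 14873, 13986 and 16218 CPM in control embryos and to 16369, 17121 and 17869 CPM after deletion. Its most abundant gene was the lysosomal protease Ctss, and all 16 genes were detected. The macrophage sum was therefore 27.6 to 57.5 times the embryonic sum in the controls and 69.9 to 103 times in the deficient libraries. The markers of the labelled cells were present but low, and those of a phagocyte dominated in all 6 libraries, controls included. All 16 macrophage markers had log2 fold changes above 0, between 0.15 and 0.25 with a median of 0.19, and 2 of them passed the adjusted p. All 30 embryonic markers that passed the filter had log2 fold changes below 0, with a median of −0.96, and 14 were called lower. Without control embryo 1 no gene of the table passed the adjusted p (edgeR), so none of these 14 calls held there. The median of the embryonic markers in that fit was −1.03. In such bulk samples, fewer cells of a type and less RNA per cell cannot be told apart. Of the targeted genes, Smarcc1 had 44.0 ± 10.05 CPM in the controls and 26.7 ± 2.47 CPM in the deficient libraries (SD, n = 3), and Smarcc2 had 91.3 ± 1.51 and 84.8 ± 2.37 CPM. Smarcc1 was called lower (log2 fold change −0.71, adjusted p = 0.0676, edgeR) and Smarcc2 did not pass (−0.11, adjusted p = 0.251), but counts per gene do not separate the floxed exons from the rest. The call of Smarcc1 did not hold without control embryo 1 either.

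Per kilobase of exon, the most abundant of the 10 genes was Cd36, the class B scavenger receptor, with 140 ± 10.1 CPM per kilobase of exon in the controls (SD, n = 3). Axl followed with 75.8 ± 5.64 and Mfge8 with 69.96 ± 6.10, and their control libraries overlapped. In the deficient libraries they did not, with 88.7 ± 4.51 for Axl and 77.8 ± 1.35 for Mfge8. Mertk followed with 36.4 ± 1.33 in the controls, Gas6 with 18.3 ± 1.81, Pros1 with 11.1 ± 0.739, Stab1 with 9.55 ± 0.653 and Abca1 with 2.87 ± 0.384, and each of these was separated from its neighbours in both groups. Tyro3, with 0.625 ± 0.167, and Adgrb1, with 0.464 ± 0.0431, came last and overlapped in both groups. By group means, the order of the first 8 genes was the same in control and deficient libraries.

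Mertk and Axl, the TAM receptors of phagocytes, rose by a small and nearly equal amount. Mertk (ENSMUSG00000014361.5, chromosome 2 of GRCm38 from 128698956 to 128802894, plus strand) stood at 160, 151 and 162 CPM in control embryos 1 to 3 and at 172, 183 and 192 CPM in deficient embryos 1 to 3. All deficient values lay above all control values, and the lowest was control replicate 2. The log2 fold change of Mertk was 0.21 (SE, the standard error, 0.062, adjusted p = 0.0864, edgeR), a rise of 15.4%. Axl (ENSMUSG00000002602.16, chromosome 7 from 25757273 to 25788705, minus strand) stood at 363, 367 and 414 CPM in control embryos and at 423, 447 and 468 CPM after deletion. Its groups did not overlap either, though control replicate 3 came close to deficient replicate 1. The log2 fold change of Axl was 0.23 (SE 0.069, adjusted p = 0.0901, edgeR), a rise of 16.9%. Neither gene reached the fold change threshold. Both passes were lost on leaving out 1 of control embryos 1 and 2 or of deficient embryos 2 and 3, with adjusted p from 0.175 to 0.309 (edgeR), while the log2 fold change stayed between 0.17 and 0.24 for Mertk and between 0.19 and 0.29 for Axl with any 1 library left out. With library totals in place of TMM, Mertk (log2 fold change 0.27, adjusted p = 0.209), Axl (0.29, adjusted p = 0.216) and Cd36 (0.26, adjusted p = 0.252) did not pass either (edgeR), at larger folds.

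Tyro3, the TAM receptor best known from neurons, moved the other way. Tyro3 (ENSMUSG00000027298.17, chromosome 2 from 119797733 to 119818104, plus strand) stood at 3.82, 4.94 and 2.87 CPM in control embryos and at 2.66, 1.22 and 1.28 CPM after deletion. These values rest on 36, 37 and 35 counts in the controls and on 34, 20 and 27 counts in the deficient libraries. The groups did not overlap, but the exact Poisson 95% interval of control replicate 3 (1.996 to 3.99 CPM) held the value of deficient replicate 1 and the other way round (1.84 to 3.71 CPM), which covers counting error only. The log2 fold change of Tyro3 was −1.19 (SE 0.37, adjusted p = 0.0909, edgeR), a fall of 56.0%, and this was the one call among the 10 genes. The call did not hold when control embryo 1 or 2 or deficient embryo 2 or 3 was left out (edgeR adjusted p from 0.184 to 0.281), and its log2 fold change ran from −1.61 to −0.98 over the 6 fits with 1 library left out.

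Within the TAM family, the shares of Axl and Mertk were similar in the groups and that of Tyro3 was smaller in the deficient libraries. Per kilobase of exon, Axl held 67.1 ± 1.38% of the summed level of the 3 receptors in the controls and 67.7 ± 0.00801% in the deficient libraries (SD, n = 3). Mertk held 32.3 ± 1.30% and 32.1 ± 0.121%. Tyro3 held 0.734%, 0.561% and 0.385% in the controls, from highest to lowest, and 0.345%, 0.150% and 0.150% in the deficient libraries. The shares of Axl and Mertk overlapped between the groups, and those of Tyro3 did not.

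The promoters of the 3 receptors are shown because the receptors belong to 1 family and moved in opposite directions, and because the study deals with transcription by Yap and Tead. The sequences are the 250 bases before the RefSeq start on GRCm38.p6, 5′ to 3′ on the gene's strand, at chr2:128698665-128698914 for Mertk, chr7:25788734-25788983 for Axl and chr2:119799264-119799513 for Tyro3. The Tyro3 window lies inside the GENCODE span of the gene given above, so its RefSeq start is downstream of the GENCODE gene start. Capitals mark the letters GGAATG (the core of the motif bound by Tead factors) and GGGCGG (a GC box) on either strand, and no matches overlap in these windows.
Mertk: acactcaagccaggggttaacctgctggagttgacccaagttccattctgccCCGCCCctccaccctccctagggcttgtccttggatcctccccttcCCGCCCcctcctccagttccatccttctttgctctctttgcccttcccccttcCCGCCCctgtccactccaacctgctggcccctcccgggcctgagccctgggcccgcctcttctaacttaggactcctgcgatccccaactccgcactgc
Axl: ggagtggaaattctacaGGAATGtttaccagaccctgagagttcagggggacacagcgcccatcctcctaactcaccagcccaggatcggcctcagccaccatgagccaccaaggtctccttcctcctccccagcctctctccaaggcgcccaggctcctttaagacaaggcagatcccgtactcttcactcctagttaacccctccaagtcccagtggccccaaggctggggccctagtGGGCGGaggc
Tyro3: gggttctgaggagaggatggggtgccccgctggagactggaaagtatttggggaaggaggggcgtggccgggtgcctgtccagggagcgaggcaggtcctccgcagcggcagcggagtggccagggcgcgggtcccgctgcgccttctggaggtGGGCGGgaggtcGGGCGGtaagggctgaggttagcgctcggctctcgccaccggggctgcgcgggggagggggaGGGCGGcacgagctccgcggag

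The Axl window held 1 GGAATG, 233 bases before the start, and the Mertk and Tyro3 windows held none. Among 32851 such windows of mouse genes, 12.6% held GGAATG and 32.7% held GGGCGG. Windows were found for 9 of the 10 genes, and that of Cd36, like that of Tyro3, lies inside the GENCODE span of its gene. Axl was the only one of these 9 with GGAATG, and GGGCGG was present in 8 of them, in all but Stab1. GC content was 73.2% in the Tyro3 window, 63.6% in the Mertk window and 60.0% in the Axl window. A match is a description of the letters and not a bound site. The table of promoters has no entry for Adgrb1.

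**Figure D2:**
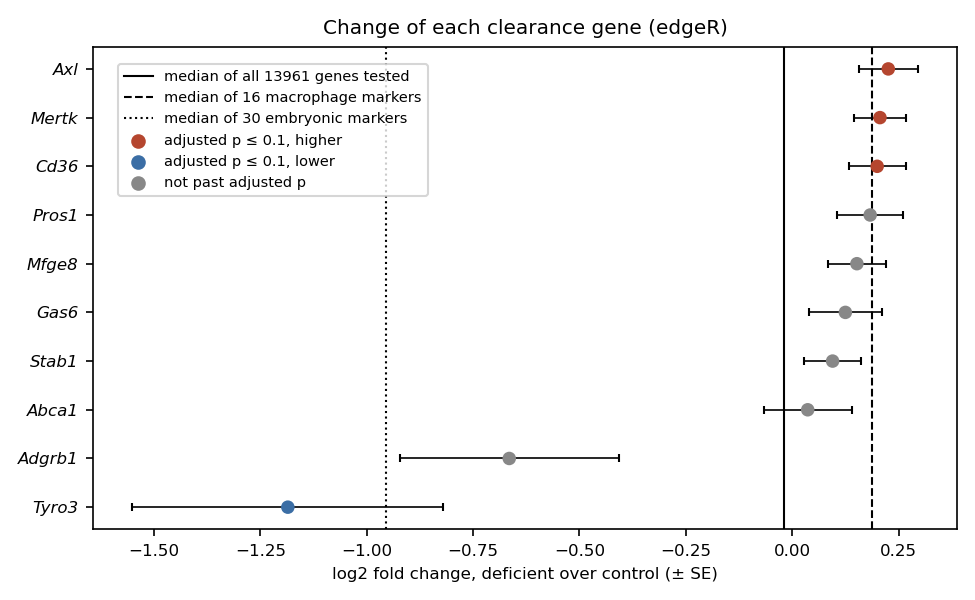
Log2 fold change of each of the 10 genes, BAF155/170-deficient over control (points, with bars of ± 1 standard error, edgeR), in red or blue where the adjusted p was at most 0.1, beside the medians of all 13961 genes tested, of the 16 macrophage markers and of the 30 embryonic markers tested (vertical lines). The 8 abundant genes lie between 0.04 and 0.23, on both sides of the macrophage median of 0.19, and Adgrb1 and Tyro3 lie on either side of the embryonic median of −0.96.

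The bridging proteins were lower than Axl or Mertk per length in the case of Gas6 and Pros1, and did not pass the test. Gas6 (ENSMUSG00000031451.5, chromosome 8 from 13465374 to 13494490), the ligand of all 3 TAM receptors, stood at 49.4, 41.4 and 49.3 CPM in control embryos and at 48.4, 50.2 and 54.5 CPM after deletion. The groups overlapped, with control replicate 2 lowest, and the log2 fold change of Gas6 was 0.12 (SE 0.085, adjusted p = 0.366, edgeR). Over the 6 fits with 1 library left out it ran from 0.05, without control replicate 2, to 0.17, and never passed. Pros1 (ENSMUSG00000022912.8, chromosome 16 from 62854307 to 62929346), which encodes the anticoagulant protein S and is a ligand of Mertk and Tyro3, stood at 48.6, 42.8 and 44.1 CPM in control embryos and at 48.5, 50.7 and 54.6 CPM after deletion. Deficient replicate 1 lay just below control replicate 1, and the log2 fold change of Pros1 was 0.18 (SE 0.077, adjusted p = 0.153, edgeR). Of the summed level of these 2 ligands, Gas6 held 62.3 ± 1.72% in the controls and 61.5 ± 0.0998% in the deficient libraries, and the groups overlapped. Mfge8 (ENSMUSG00000030605.15, chromosome 7 from 79133768 to 79149060), the milk fat globule protein that bridges phosphatidylserine to αv integrins, stood at 342, 295 and 348 CPM in control embryos and at 359, 364 and 372 CPM after deletion. Its groups did not overlap, the deficient libraries lay closer together than the controls, and its log2 fold change of 0.15 (SE 0.069) had an adjusted p of 0.179 (edgeR). With 1 library left out, Mfge8 ran from 0.08, without control replicate 2, to 0.20, without control replicate 3. It passed only in the latter of these fits (adjusted p = 0.0637, edgeR).

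Cd36 was the only one of the other receptors to pass the test, at the very edge of the threshold. Cd36 (ENSMUSG00000002944.15, chromosome 5 from 17781690 to 17888801), which takes up oxidized lipids and takes part in corpse uptake with thrombospondin, stood at 507, 463 and 534 CPM in control embryos and at 564, 566 and 598 CPM after deletion. Its groups did not overlap, and the log2 fold change was 0.20 (SE 0.067, adjusted p = 0.0998, edgeR). With each library left out in turn, Cd36 passed in 1 of 6 fits, that without control replicate 3, and its log2 fold change ran from 0.15 to 0.25. Without the other 5 libraries, each in turn, its adjusted p was 0.119 or more. With the filter of at least 1 CPM in 3 libraries Cd36 did not pass either (0.20, adjusted p = 0.102, edgeR). Stab1 (ENSMUSG00000042286.13, chromosome 14 from 31139013 to 31168641), a scavenger receptor of macrophages and sinusoidal endothelium that binds phosphatidylserine directly, stood at 101, 90.6 and 103 CPM in control embryos and at 101, 103 and 110 CPM after deletion. The groups overlapped and the log2 fold change of Stab1 was 0.09 (SE 0.067, adjusted p = 0.388, edgeR). With each library left out in turn, Stab1 ran from 0.04, without control replicate 2, to 0.13, and did not pass. The exons of Stab1 share 112 bases with Nt5dc2 on the opposite strand, and the strand setting of the counting is not given, but Nt5dc2 had between 149 and 257 counts in a library where Stab1 had between 679 and 2328. Abca1 (ENSMUSG00000015243.4, chromosome 4 from 53030787 to 53159895), which exports cholesterol and is induced by liver X receptors in cells that have digested a corpse, stood at 31.4, 25.2 and 32.7 CPM in control embryos and at 28.8, 30.2 and 32.9 CPM after deletion. Its log2 fold change of 0.04 (SE 0.10, adjusted p = 0.855, edgeR) was the smallest of the 10 genes, and it changed sign without control replicate 2 (−0.06) or deficient replicate 3 (−0.02).

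Adgrb1, also known as BAI1, is an adhesion receptor that binds phosphatidylserine and signals through Elmo and Dock1, and it is known best from brain. Adgrb1 (ENSMUSG00000034730.16, chromosome 15 from 74516195 to 74589465) stood at 3.29, 3.07 and 3.68 CPM in control embryos and at 2.03, 2.13 and 2.18 CPM after deletion, from 23 to 46 counts per library. The groups did not overlap, but the exact Poisson 95% interval of control replicate 2 (1.95 to 4.61 CPM) held all 3 deficient values. Those of control replicates 1 (2.23 to 4.67 CPM) and 3 (2.69 to 4.93 CPM) held none of them. Such intervals cover counting error only. At a log2 fold change of −0.67 (SE 0.26) the gene missed the threshold (adjusted p = 0.128, edgeR). It passed in none of the 6 fits with 1 library left out (edgeR adjusted p from 0.178 to 0.319), and its log2 fold change there stayed between −0.72 and −0.59. Adgrb1 had nearly the same level in the 3 deficient libraries, whereas Tyro3 was lower in deficient replicates 2 and 3 than in deficient replicate 1.

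The profiles over the libraries were set beside those of the marker lists, as log2 CPM centred on the mean of the 6 libraries. For the macrophage markers the median profile was −0.12, −0.20 and 0.03 in the controls and 0.03, 0.10 and 0.15 in the deficient libraries. For the embryonic markers it was 0.48, 0.95 and 0.06 in the controls and −0.14, −0.52 and −0.77 in the deficient libraries. Axl (−0.18, −0.17 and 0.01, then 0.04, 0.12 and 0.18) and Cd36 (−0.08, −0.21 and −0.01, then 0.07, 0.08 and 0.16) followed the first. Tyro3 (0.59, 0.95 and 0.19, then 0.09, −0.94 and −0.88) ran closer to the second, high in control replicate 2 and lower in deficient replicates 2 and 3. The root mean square difference from the macrophage median was 0.0302 for Cd36, 0.0337 for Axl, 0.0455 for Mertk, 0.0508 for Mfge8, 0.0575 for Stab1, 0.0655 for Gas6, 0.0855 for Pros1 and 0.101 for Abca1, against 0.658 to 0.712 from the embryonic median for these 8. The median of the endothelial markers (5 tested, median log2 fold change 0.17, none past the test) lay farther from each of these 8 genes than the macrophage median did, at 0.0685 for Stab1, 0.0806 for Cd36, 0.0860 for Axl and 0.127 for Abca1, and nearer than the embryonic median. For Tyro3 it was 0.818 from the macrophage and 0.215 from the embryonic median. Adgrb1 resembled none of them, at 0.407 from the macrophage, 0.430 from the embryonic and 0.364 from the endothelial median, and it was highest in control replicate 3, the control library with the lowest embryonic sum. These distances describe 6 libraries that share depth and composition, and they carry no test.

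**Figure D3:**
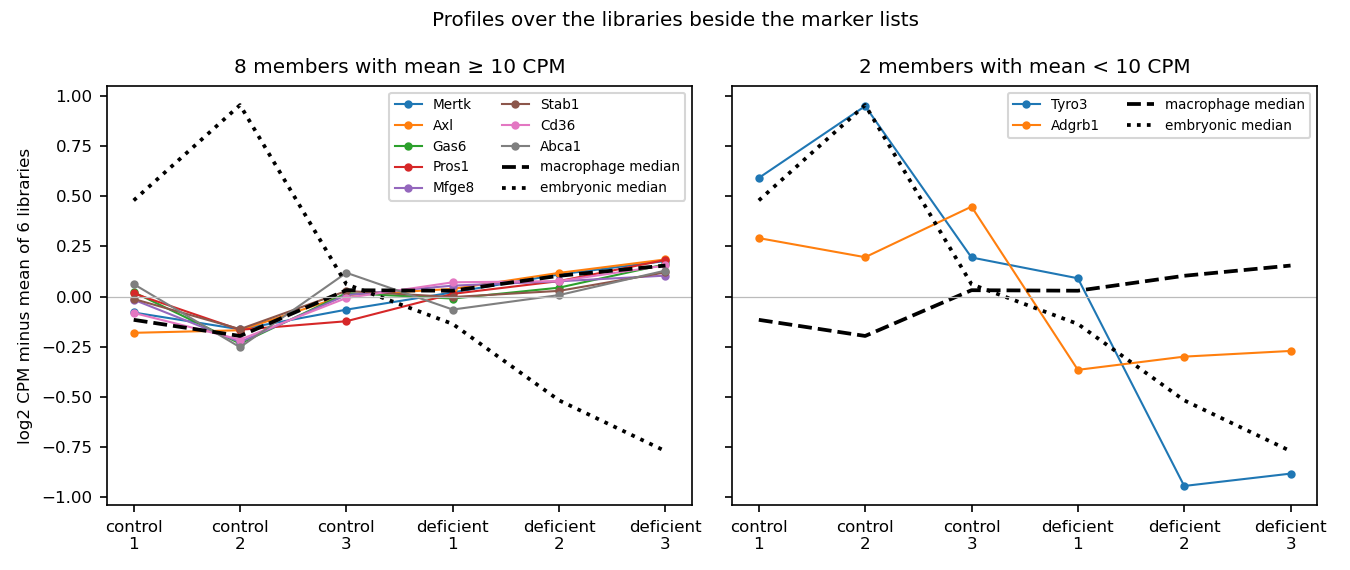
Log2 CPM minus the mean of the 6 libraries (vertical axis) in each library for the 8 abundant genes (left) and for Tyro3 and Adgrb1 (right), with the medians of the macrophage (dashed) and embryonic (dotted) marker lists; lines join libraries only to guide the eye. The 8 abundant genes lie along the macrophage median, Tyro3 runs near the embryonic median, and Adgrb1 lies apart from both.

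Set against the summed macrophage markers of the same library, 7 of the 8 abundant genes had groups that overlapped. The share of all genes whose groups overlap on this scale was not computed, so overlap here only describes the genes. Mertk had 10.8, 10.8 and 9.99 CPM per 1000 CPM of macrophage markers in the controls and 10.5, 10.7 and 10.7 in the deficient libraries. Axl had 25.4 ± 0.898 and 26.1 ± 0.191 (SD, n = 3), Cd36 33.4 ± 0.639 and 33.7 ± 0.713, and Mfge8 21.9 ± 1.005 and 21.3 ± 0.568, and the groups overlapped for each. The differences were larger for Gas6, with 3.11 ± 0.192 and 2.98 ± 0.0610, and for Abca1, with 1.98 ± 0.158 and 1.79 ± 0.0470, a mean difference of −9.52%, but their groups overlapped too. Stab1 was the one abundant gene whose groups did not overlap on this scale, with 6.76, 6.48 and 6.38 in the controls and 6.19, 6.04 and 6.17 in the deficient libraries. Tyro3 (0.262 ± 0.0883 and 0.102 ± 0.0525) and Adgrb1 (0.223 ± 0.00405 and 0.124 ± 0.00142) remained lower without overlap. Set against the summed embryonic markers instead, Tyro3 had 10.5, 9.75 and 10.2 CPM per 1000 CPM in the controls and 11.3, 6.57 and 7.35 in the deficient libraries, and its groups overlapped, as did those of Adgrb1.

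The whole table was also refitted with the libraries scaled to the macrophage markers, which moved the median log2 fold change of all genes by −0.19. Mertk (0.01), Axl (0.03), Cd36 (0.01), Pros1 (−0.01), Mfge8 (−0.04), Gas6 (−0.07), Stab1 (−0.10) and Abca1 (−0.15) then lay near 0 and none of the 10 genes passed the adjusted p (edgeR; 2 had an unadjusted p under 0.05), although 993 genes of the table did, all lower. Tyro3 stayed at −1.38 (edgeR adjusted p = 0.108) and Adgrb1 at −0.85 (adjusted p = 0.1002). With scaling to the embryonic markers, which moved the median of all genes by 1.122, the 8 abundant genes lay between 1.13 and 1.33 and passed, Tyro3 was at −0.05 and Adgrb1 at 0.44 (edgeR adjusted p = 0.919 and 0.318). Of the 13961 genes tested, 11062 passed under this scaling, 11003 of them higher, so passing was common to most of the table. A scaling moves all genes by about the same amount, so which of the 10 genes changed sign follows from how far from 0 each lay with TMM. Whether the level of any of the 10 genes changed within cells of 1 type was not tested.

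**Figure D4:**
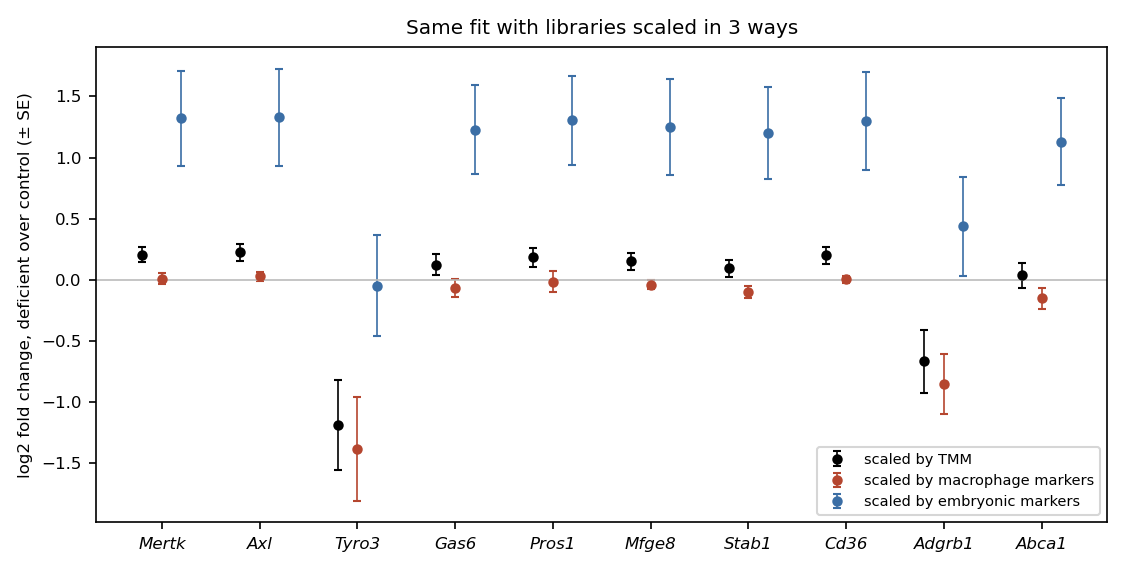
Log2 fold change of the 10 genes (points, ± 1 standard error, edgeR) with the libraries scaled by TMM (black), to 16 macrophage markers (red) or to 24 embryonic markers (blue). Under the macrophage scaling the 8 abundant genes lie between −0.15 and 0.03, and under the embryonic scaling Tyro3 lies at −0.05.

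Cells of other types were looked for with short marker lists. The 8 endothelial markers summed to 183 ± 11.5 CPM in the controls and 205 ± 7.001 CPM in the deficient libraries (SD, n = 3), almost all of it from Kdr, the VEGF receptor, at 173 and 194 CPM. Cdh5, the endothelial cadherin, was at 1.62 and 1.69 CPM, Tek, the angiopoietin receptor, at 0.332 and 0.431 CPM and Cldn5, a junction protein, at 0.349 and 0.295 CPM. These 3 genes were named after their values were seen. Of these markers 5 were tested, none passed, and their median log2 fold change was 0.17. Erythroid markers had a median of −0.49 over 9 tested genes, and none passed. The most abundant was Hbb-y, an embryonic globin, with 9.44, 24.3 and 5.65 CPM in control embryos and 3.59, 2.19 and 3.36 CPM after deletion, so that control embryo 2 carried much of its control mean. Of the 9 tested genes 5 were below 0 and 4 above, the adult globins Hbb-bs (0.20), Hbb-bt (0.07), Hba-a1 (0.02) and Hba-a2 (0.48). Of 9 neutrophil markers, 2 were tested, S100a8 and S100a9, with a median of 0.52, and neither passed (adjusted p = 0.105 and 0.109, edgeR). Both lay higher in every deficient library than in every control library, as did 15.1% of all genes tested.

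The rest of the clearance pathway was read from a list of 73 genes in 4 roles, of which 71 were tested. At an adjusted p of at most 0.1, 11 rose, 1 fell and 59 did not pass (edgeR), against 4.18% higher and 7.75% lower among all genes tested. With library totals these shares rest on 75 higher and 1002 lower genes, with scaling to the macrophage markers on 0 and 993, and with scaling to the embryonic markers on 11003 and 59, in place of 583 and 1082. The 11 that rose had log2 fold changes between 0.19 and 0.27. With library totals or with scaling to the macrophage markers none of the 11 rises passed in edgeR and 1 gene was lower under each, with 14 and 12 of the 71 genes at an unadjusted p under 0.05. Control and deficient values were fully separated in 33 of 71 genes, 28 higher and 5 lower, where 31.4% of all genes tested did not overlap, 15.1% higher and 16.4% lower. The median of the 71 was 0.14, the same as for the 10 genes above. Without control replicate 2 these medians were 0.09 for the 71 and 0.07 for the 10 genes. When control embryo 1 or 2 or deficient embryo 2 or 3 was left out, none of the 71 passed in edgeR, though 13 to 19 had an unadjusted p under 0.05, and 36 passed without control replicate 3.

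Among 25 phosphatidylserine and scavenger receptors, 23 were tested, 4 rose and 1 fell. Those that rose were Scarf1, a receptor for C1q on dying cells (log2 fold change 0.27, SE 0.066), the scavenger receptor Msr1 (0.24, SE 0.073), the nucleotide receptor P2ry6 (0.22, SE 0.065) and the β2 integrin Itgb2 (0.21, SE 0.066). Their adjusted p ranged from 0.0685 to 0.0949 (edgeR). Megf10, an engulfment receptor known from astrocytes and muscle precursors, was the gene that fell, and it was called lower under the thresholds of the study. Megf10 stood at 6.90, 8.14 and 4.26 CPM in control embryos and at 3.13, 2.01 and 1.23 CPM after deletion, without overlap. Its log2 fold change was −1.62 (SE 0.36, adjusted p = 0.0609, edgeR). Clec7a, a lectin receptor for β-glucans, did not pass (0.19, adjusted p = 0.107, edgeR). It was 1 of the 3 most abundant receptors of the list per kilobase of exon over the 6 libraries. By mean CPM, Trem2 (350) and Lrp1 (220) lay above it (188). Besides Megf10, 4 pathway genes under 10 CPM had groups that did not overlap and did not pass; they were picked out after the values were seen, and 3 were lower and 1 was higher. Pear1, a relative of Megf10, had a log2 fold change of −1.43 (SE 0.52, adjusted p = 0.115, edgeR). Timd4, the phosphatidylserine receptor of resident macrophages, had 1.45 ± 0.163 CPM in the controls and 0.706 ± 0.0978 CPM in the deficient libraries (SD, n = 3; log2 fold change −1.03, edgeR adjusted p = 0.123). Edil3, a relative of Mfge8, had 6.49 ± 0.625 and 4.14 ± 0.887 CPM (log2 fold change −0.66, edgeR adjusted p = 0.102). P2ry12, the ADP receptor of microglia, had 1.72 ± 0.569 and 2.42 ± 0.0428 CPM (log2 fold change 0.47, edgeR adjusted p = 0.372), and its value was the highest of the 71. Havcr1 and Stab2 were too low to test. Stab2, the relative of Stab1, had 2 to 12 counts per library.

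Of 14 other bridges and signals, 1 passed, complement C3 at a log2 fold change of 0.23 (SE 0.070, adjusted p = 0.0912, edgeR). The most abundant per length were Lgals3, a galectin that binds Mertk (log2 fold change 0.16), and the phosphatidylserine-binding annexins Anxa5 (0.22) and Anxa1 (0.18), none of which passed. Of 20 genes of engulfment and phagosome maturation, 5 rose: Rac2, the blood cell Rac GTPase (0.21, SE 0.071), its activator Dock2 (0.24, SE 0.076), the endosomal GTPases Rab5a (0.19, SE 0.064) and Rab7 (0.20, SE 0.062), and the lysosomal membrane protein Lamp2 (0.22, SE 0.067). The other most abundant genes of this role, Lamp1 (0.18) and Rhog (0.15), did not pass. Dock1, through which Adgrb1 signals and which was picked after its value was seen, had a log2 fold change of −0.45 (SE 0.28, adjusted p = 0.339, edgeR). Of 14 genes of lipid handling, Nr1h3 rose, the liver X receptor alpha gene, with 69.1 ± 5.60 CPM in the controls and 81.2 ± 2.70 CPM in the deficient libraries (SD, n = 3; log2 fold change 0.23, SE 0.071, adjusted p = 0.0901, edgeR). Its target Abca1 did not pass, nor did Abcg1 (log2 fold change 0.18, adjusted p = 0.146, edgeR), also picked later, the other cholesterol exporter under liver X receptor control. The most abundant genes of this role were Apoe (0.18), Npc2 (0.19) and Lipa (0.14), which carry cholesterol, release it and hydrolyse its esters, and none passed.

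On the TMM scale, direction went with level in this pathway as it did in the 10 genes. Of the pathway genes with a mean of at least 10 CPM over the 6 libraries, 54 of 60 had a log2 fold change above 0, with a median of 0.15, and of those under 10 CPM 9 of 11 were below 0, with a median of −0.21. Among all genes tested, 4718 of 7352 genes with at least 10 CPM were above 0, with a median of 0.07, and 4671 of 6609 genes under 10 CPM were below 0, with a median of −0.24. The direction of the split by level was thus shared with the table as a whole. At 10 CPM or more, the pathway had a larger part of its genes above 0 and a higher median than the table.

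**Figure D5:**
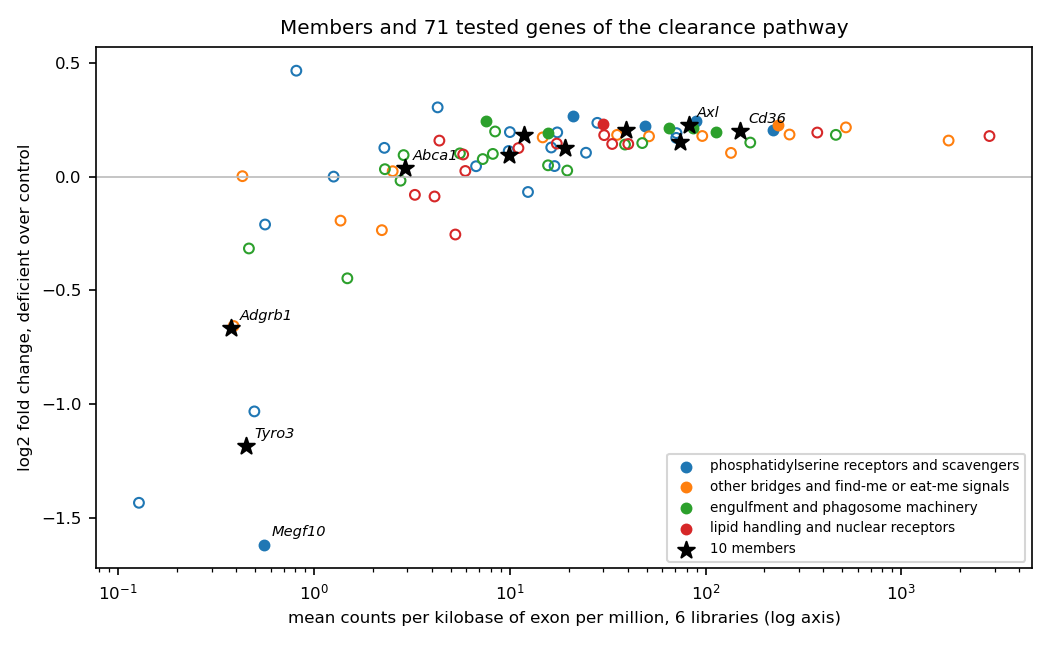
Log2 fold change (vertical axis) against the mean of the 6 libraries in CPM per kilobase of exon (log axis) for the 71 tested pathway genes, coloured by role and filled where the adjusted p was at most 0.1, with the 10 genes as stars. Of the 60 genes with at least 10 CPM, 54 lie above 0 (TMM scale), and the larger falls, Megf10 at −1.62 and Tyro3 at −1.19 among them, are at the low end of the axis.

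Genes of similar pattern were taken as those with the smallest root mean square difference of centred log2 CPM over the 6 libraries, among 7344 genes with a mean of at least 10 CPM. For Axl these were Gbp9 (0.00857) and Phf11b (0.0106), for Mertk Tiparp (0.0143) and Edem2 (0.0146), and for Cd36 Nfkbiz (0.00671) and Acaa1a (0.00836). For Tyro3 they were Phykpl (0.0610) and Gas1 (0.0666), and for Adgrb1 Msh3 (0.117) and Rnf169 (0.138). The distances of Tyro3 and Adgrb1 are larger, and both genes rest on few counts.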

How the data were processed

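Strand-specific poly(A) libraries of GFP-positive cells from 6 embryos were sequenced in pairs of reads. Per the methods and the submitters' processing notes, the authors trimmed adapters (cutadapt 1.18), aligned to GRCm38 with STAR and assigned reads to genes with featureCounts. The deposited values are whole counts per gene, without normalization. The annotation release, the strand setting and the treatment of reads mapping to several places are not given in the sources used here. Identifiers were matched to GENCODE M21 without version numbers (46488 of 46983 genes, 8 of the 10 genes with the same version), which also gave coordinates and exon lengths. Replicates were 3 separate embryos per group.

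Counts were filtered with filterByExpr (minimum count 10, minimum total 15), normalized by TMM and fitted with edgeR 4.0.16 in R 4.3.3 (robust quasi-likelihood, condition as the only term), with Benjamini-Hochberg adjustment over 13961 genes. Log2 CPM used a prior count of 2, and standard errors come from the F statistic. The fit was tested on simulated data. Alternatives were limma-voom (limma 3.58.1), DESeq2 1.42.0, library totals, scaling to marker lists, other filters, a replicate block and each library left out. Genes named are the 10 genes, pathway genes past the adjusted p or among the 3 highest per length in their role, the most abundant marker of each list, and the nearest patterns; others are said to have been picked later. The 10 genes, the lists (pathway, macrophage, embryonic, endothelial, erythroid, neutrophil) and the thresholds were chosen with earlier results of these data known. Figures were made with Python 3.11.15 and matplotlib 3.10.9.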

Additional observations from a re-analysis of the deposited data

How the results depend on the processing

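The count of the 10 genes called was 1, and it was the same with limma-voom, DESeq2, library totals, other filters and the replicate block. It was 0 with scaling to the macrophage markers, 8 with scaling to the embryonic markers, and between 0 and 1 with each library left out. In the main fit 4.94% of all genes were called, and the share under the other settings is not given here. The embryonic scaling moved the median of all genes by 1.122, beyond the fold threshold of 0.58, so the count of 8 is not particular to these genes. The count past the adjusted p was 4, against 1 with library totals, 0 and 8 with scaling to the macrophage and embryonic markers, and between 0 and 5 with each library left out. With the filter of at least 1 CPM in 3 libraries it was 3, as Cd36 no longer passed (adjusted p = 0.102, edgeR). Of the pathway genes 12 passed, against 23 with DESeq2, 26 with no filter on low counts, 1 (lower) with library totals, 1 (lower) and 67 (all higher) with the macrophage and embryonic scaling, and between 0 and 36 with each library left out. Of all genes 1665 passed (583 higher), against 1077 (75 higher) with library totals, 993 (0 higher) and 11062 (11003 higher) with the macrophage and embryonic scaling, 3096 with no filter, and between 0 and 3745 with each library left out; without control replicate 1, where none passed by edgeR, 2547 genes had an unadjusted p under 0.05. The cause of these shifts was not tested.

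With the replicate number as a block, 33 pathway genes and 3665 of all genes passed. The block used the replicate numbers of the sample titles, by which deviations of same-numbered libraries correlated at 0.028, −0.034 and 0.29 across genes. The column names number the deficient libraries 2 to 4 instead, and the 2 pairs that share a number by them, control 2 with deficient 1 and control 3 with deficient 2 of the titles, correlated at 0.261 and 0.00042. The libraries share only a number under either numbering. Mfge8 also passed with this block (edgeR adjusted p = 0.0519).

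Signs reversed for Abca1 (−0.151 with the macrophage scaling, and from −0.061 to 0.111 with each library left out, below 0 without control replicate 2 or deficient replicate 3), for Gas6 (−0.066), Mfge8 (−0.040), Pros1 (−0.013) and Stab1 (−0.098) with the macrophage scaling, and for Adgrb1 (0.44) with the embryonic scaling. Library totals moved the median of all genes by 0.061. Depth limits Tyro3, with 20 to 37 counts per library, and Adgrb1, with 23 to 46, where the exact Poisson intervals of all 3 deficient libraries overlap those of controls; for Tyro3 that of deficient replicate 1 does, and those of deficient replicates 2 and 3 do not.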
